A study of Arabidopsis thaliana with 12 samples.

Results

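The nuclear genes for the light-harvesting antenna and for the photosystem subunits were followed in 12 RNA-seq libraries of *Arabidopsis thaliana* seedlings. The 43 genes were chosen by locus name from the 26245 gene models of the count table, with earlier results of these data known. They comprise 15 *LHCB* genes for the antenna of photosystem II, 6 *LHCA* genes for the antenna of photosystem I, 12 *PSA* genes for subunits of photosystem I and 10 *PSB* genes for subunits of photosystem II. All 43 had at least 1 CPM (counts adjusted for library size by TMM scaling) in at least 3 libraries and were tested. Libraries came from pools of about 30 whole seedlings, and each of the 4 groups has 3 libraries. The first line, *rve8-1* (*rve8*), is a mutant of *RVE8*, a MYB-like transcription factor of the circadian clock. The second, *rve8-1 RVE8::RVE8:GR* (*RVE8:GR*), carries the same mutation plus RVE8 fused to the glucocorticoid receptor under the *RVE8* promoter. Dexamethasone (DEX), a synthetic steroid, lets this fusion protein move from the cytoplasm into the nucleus, while *rve8* plants, which have no fusion protein, serve as the control for DEX itself. Both lines grew on 3% sucrose in 12 hr of light a day for 7 days, were moved at ZT4 (4 hr after lights on) into liquid medium with DEX or with the solvent alone (mock), and were harvested at ZT8. The labels give the DEX concentration as 30 mM, whereas the study's methods give 30 µM. Each line is represented by a single genotype, and no wild type was analysed here, so every comparison is between plants that carry *rve8-1*.

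Light-harvesting proteins bind chlorophyll and pass the absorbed energy to the reaction centres of the photosystems. LHCB1, LHCB2 and LHCB3 form the trimers of the major antenna, LHCII, and LHCB4, LHCB5 and LHCB6 link these trimers to photosystem II. LHCA1 to LHCA4 form a belt on one side of photosystem I, whereas LHCA5 and LHCA6 are scarce members that join photosystem I to the chloroplast NADH dehydrogenase-like complex. The proteins are encoded in the nucleus and imported into the chloroplast, and their genes are known as responsive to light and to the clock.

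The library totals were 15975840 to 21713130 counts, lowest in *rve8* + mock, so the floor of 3 counts lies at 0.139 to 0.182 CPM. Even the scarcest of the 43 genes stayed above it in all libraries. No pair of replicates agreed within sampling noise (chi-square divided by its degrees of freedom 4.25 to 11.1), and the largest value was that between replicates 1 and 3 of *rve8* + mock. *RVE8* itself was at 9.75, 8.75 and 8.34 CPM in *RVE8:GR* + mock and 5.19, 5.51 and 6.30 CPM in *RVE8:GR* + DEX, against 0.600 to 2.06 CPM in the 6 *rve8* libraries, so the lines matched their labels.

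The *LHCB1* and *LHCB2* paralogs are so alike that a read can often match more than one of them. The percentage of 50-base stretches of a cDNA that also occur in another cDNA was 10.6% to 20.5% for the 5 *LHCB1* genes, 22.7% for *LHCB2.1* and 28.2% for *LHCB2.2*, in each case within the same subunit. It was 0% for *LHCB2.3*, and the other 35 genes were all under 10%. The coding sequences of *LHCB1.1*, *LHCB1.2* and *LHCB1.3* were 95.6% to 96.4% identical to each other, whereas *LHCB1.4* was 87.0% identical to *LHCB1.1*. The stretches below, from the TAIR10.1 genome, show what a read has to tell them apart. Each subunit was aligned on its own, and the stretches of *LHCB1* and *LHCB2* are different regions. For *LHCB1* they are coding bases 383 to 432 of *LHCB1.1* and the aligned bases of its paralogs. For *LHCB2* they are coding bases 333 to 382 of *LHCB2.1* and the aligned bases of its paralogs. Capitals mark a base that differs from the most common base of the subunit at that position.
LHCB1.1: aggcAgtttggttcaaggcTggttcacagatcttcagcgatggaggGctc
LHCB1.2: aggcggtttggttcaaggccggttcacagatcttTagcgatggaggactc
LHCB1.3: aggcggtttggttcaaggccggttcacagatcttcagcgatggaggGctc
LHCB1.4: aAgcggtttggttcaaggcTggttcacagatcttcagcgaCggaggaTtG
LHCB1.5: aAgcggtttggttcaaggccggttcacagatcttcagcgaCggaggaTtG
LHCB2.1: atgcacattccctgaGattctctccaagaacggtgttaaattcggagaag
LHCB2.2: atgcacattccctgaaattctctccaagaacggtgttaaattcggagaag
LHCB2.3: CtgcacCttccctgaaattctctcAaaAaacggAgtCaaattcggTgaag
In this stretch *LHCB2.1* carries 1 capital and *LHCB2.2* none, whereas *LHCB2.3* carries 7. Which copy was credited with a read that matches several equally well is not given in the sources used here. The *LHCB1* and *LHCB2* genes are therefore read as sums first, and the values of *LHCB1.1* to *LHCB1.5*, *LHCB2.1* and *LHCB2.2* on their own are uncertain.

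Together the 43 genes took 6.97% to 9.23% of all counts in a library. On the scale of CPM per kb of cDNA, the most abundant member of each class was *LHCB1.3* (AT1G29930, 9258), *PSBR* (AT1G79040, 5171), *PSAG* (AT1G55670, 3653) and *LHCA4* (AT3G47470, 2672). The lowest were *LHCB4.3* (AT2G40100, 4.03), *LHCB7* (AT1G76570, 6.11), *LHCA6* (AT1G19150, 46.1) and *LHCA5* (AT1G45474, 46.7), all of them antenna genes. The levels thus span more than 3 orders of magnitude, and the *PSA* and *PSB* genes lie between 499 (*PSAH-1*) and 5171 CPM per kb.

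**Figure D1:**
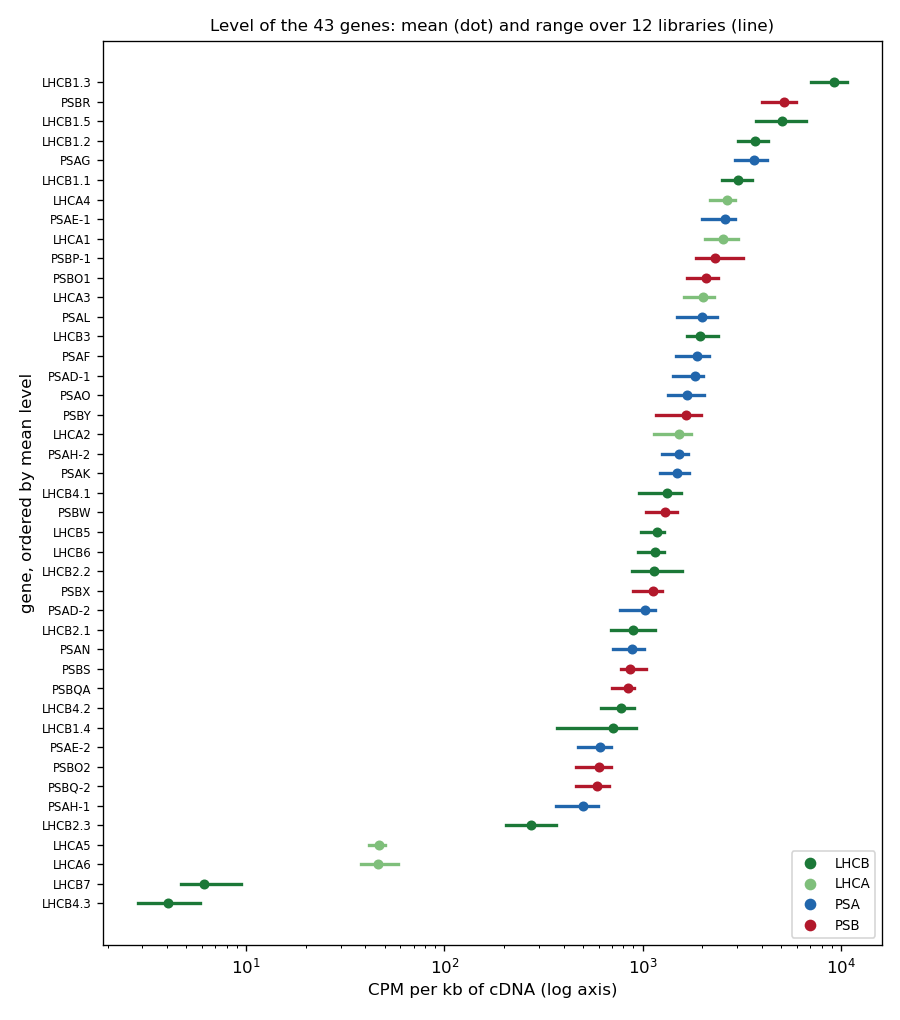
Mean level of each of the 43 genes over all 12 libraries (dot) with the lowest and highest library (line), in CPM per kb of cDNA on a log axis, coloured by class. *LHCB1.3* stands at the top with 9258 and *LHCB4.3* at the bottom with 4.03, and 4 antenna genes lie apart at the low end, below *LHCB2.3*.

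The group that stood apart was *rve8* + mock. Its mean was the lowest of the 4 groups for 39 of the 43 genes, against 27.8% of all 19961 genes tested, and it was the highest for none of them. The exceptions were *LHCB2.3*, *LHCB4.3*, *LHCB7* and *PSBS*. The share of counts taken by the 43 genes was 6.97% to 7.96% in *rve8* + mock, below the 8.56% to 9.23% of *rve8* + DEX, the 8.70% to 9.04% of *RVE8:GR* + mock and the 8.40% to 8.72% of *RVE8:GR* + DEX. The ranges of the last 3 groups overlapped. Relative to each gene's mean over the 12 libraries, the median of the 43 genes was -0.27, -0.30 and -0.06 (log2) in replicates 1, 2 and 3 of *rve8* + mock. Replicate 3 of that group therefore lay closer to the other groups than its own replicates did. The medians in *rve8* + DEX were 0.11, 0.18 and 0.04, and those of the 6 *RVE8:GR* libraries were 0.02 to 0.10. Libraries are of whole seedlings, so fewer cells of a type and less RNA per cell cannot be told apart.

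**Figure D2:**
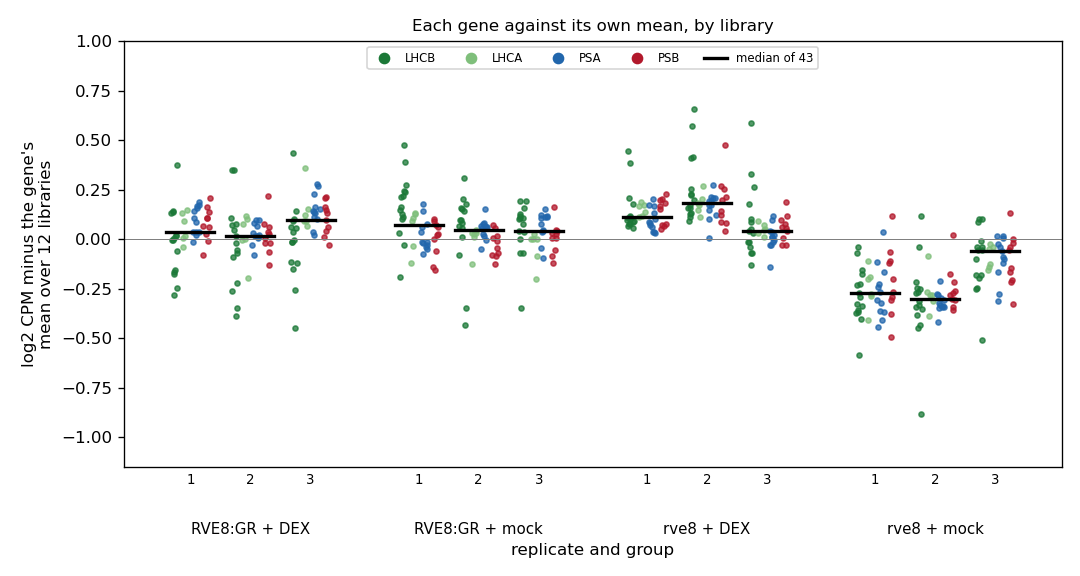
Each point is 1 gene in 1 library, as log2 CPM minus the mean of that gene over the 12 libraries, coloured by class, and the black line is the median of the 43 genes. The medians of the 3 *rve8* + mock libraries are -0.27, -0.30 and -0.06, and the other 9 lie between 0.02 and 0.18.

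The major antenna was examined first. Differences were tested with edgeR's quasi-likelihood test over the 19961 genes, or over 19950 when paralogs were replaced by their sums, and the calls below are those with a Benjamini-Hochberg adjusted p under 0.01. Summed over its 5 genes, *LHCB1*, the most abundant LHCII protein, was at 20793, 20509 and 24294 CPM in replicates 1 to 3 of *rve8* + mock and at 27886, 30306 and 27514 CPM in those of *rve8* + DEX. The sums were 28966, 26870.1 and 27025 CPM in *RVE8:GR* + mock and 26008, 26321 and 26666 CPM in *RVE8:GR* + DEX. The 3 *rve8* + mock libraries were the lowest of the 12, with no overlap with any group. *LHCB1* was higher in *rve8* + DEX than in *rve8* + mock by 0.38 ± 0.0700 (log2 ± SE, adjusted p = 0.000993) and above its *rve8* + mock level in *RVE8:GR* + mock by 0.33 ± 0.0700 (log2 ± SE, adjusted p = 0.0074). The second call was lost in 8 of the 12 fits that each left out 1 library (without replicate 1 or 2 of *rve8* + mock, any 1 of the *RVE8:GR* + mock libraries, replicate 1 of *rve8* + DEX, or replicate 1 or 3 of *RVE8:GR* + DEX), with adjusted p-values of 0.0109 to 0.0649, and the first without replicate 2 of *rve8* + mock (adjusted p = 0.0133). In *RVE8:GR* the change of the sum with DEX was -0.07 ± 0.0699 (log2 ± SE, adjusted p = 0.673), and between the lines after DEX it was -0.12 ± 0.0699 (log2 ± SE, adjusted p = 0.375), neither of them called. The difference between the DEX responses of the lines was -0.45 ± 0.0990 (log2 ± SE, adjusted p = 0.0121), which did not pass the threshold.

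The *LHCB1* genes did not all have the same profile. *LHCB1.4* (AT2G34430, chr2:14524607-14525918, forward strand, 1 exon) was at 598, 486 and 629 CPM in *rve8* + mock, 952, 1010.5 and 853 CPM in *rve8* + DEX, 1085, 1030.4 and 999.7 CPM in *RVE8:GR* + mock and 1162, 1140.0 and 1210.4 CPM in *RVE8:GR* + DEX. The 4 groups were fully separated in that order, apart from an overlap of *rve8* + DEX with *RVE8:GR* + mock at 1 library each. It had the largest change of the 43 genes with DEX in *rve8* (0.72 ± 0.0813, log2 ± SE, adjusted p = 1.36e-05) and the largest difference between the lines after mock treatment (0.86 ± 0.0814, log2 ± SE, adjusted p = 2.18e-06). Its DEX response in *RVE8:GR* was 0.17 ± 0.0806 (log2 ± SE, adjusted p = 0.252), not called, and the difference between the 2 responses was -0.54 ± 0.114 (log2 ± SE, adjusted p = 0.00986).

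*LHCB1.5* (AT2G34420), its neighbour on chromosome 2, was at 4276, 3887 and 4409 CPM in *rve8* + mock and 6062, 6969.9 and 5928 CPM in *rve8* + DEX, and it rose with DEX by 0.59 ± 0.0691 (log2 ± SE, adjusted p = 1.36e-05). Its libraries were at 5139, 4966 and 4988 CPM in *RVE8:GR* + mock and 5771, 5519 and 5791 CPM in *RVE8:GR* + DEX. The 3 genes on chromosome 1 lie side by side, between 10472280 and 10479114. Of these, *LHCB1.1* (AT1G29920) was at 3377, 3326 and 3922 CPM in *rve8* + mock, 4167, 4710.4 and 4244 CPM in *rve8* + DEX, 4575, 4363 and 4167 CPM in *RVE8:GR* + mock and 3521, 3717 and 3629 CPM in *RVE8:GR* + DEX. In *rve8* its DEX libraries were all above the mock libraries, and in *RVE8:GR* all below them. The fold changes were 0.30 ± 0.0710 (log2 ± SE, adjusted p = 0.00691) in *rve8* and -0.27 ± 0.0710 (log2 ± SE, adjusted p = 0.0218) in *RVE8:GR*, of which the first was called, and their difference was -0.57 ± 0.10 (log2 ± SE, adjusted p = 0.00192). *LHCB1.2* (AT1G29910) had the same order, from 3813, 3712 and 4308 CPM to 4795, 5227 and 4748 CPM in *rve8* and from 5008, 4735 and 4606 CPM to 4285, 4261 and 4426 CPM in *RVE8:GR*, mock first. It rose in *rve8* by 0.32 ± 0.0671 (log2 ± SE, adjusted p = 0.00298), and the difference between the responses was -0.47 ± 0.0948 (log2 ± SE, adjusted p = 0.00704). *LHCB1.3*, the most abundant of the 43 genes, was at 8729, 9098 and 11026 CPM in *rve8* + mock, 11910.4, 12388 and 11741 CPM in *rve8* + DEX, 13159.6, 11775 and 12264 CPM in *RVE8:GR* + mock and 11268, 11685 and 11609 CPM in *RVE8:GR* + DEX. It was above its *rve8* + mock level in *RVE8:GR* + mock by 0.37 ± 0.0763 (log2 ± SE, adjusted p = 0.00649) and higher in *rve8* with DEX by 0.32 ± 0.0763 (log2 ± SE, adjusted p = 0.00793). So with DEX in *RVE8:GR* the 3 genes on chromosome 1 were all on the lower side (-0.27, -0.15 and -0.11 on the log2 scale) and the pair on chromosome 2 on the higher side (0.17 and 0.18), and none of the 5 was called. Each of the 5 shares the most 50-base stretches with another on its own chromosome, so values on the same chromosome may not be independent.

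The *LHCB2* sum, the other main LHCII protein, was at 2236, 2241 and 3042 CPM in *rve8* + mock, 3099, 3241 and 2978 CPM in *rve8* + DEX, 3766, 3180.1 and 3236 CPM in *RVE8:GR* + mock and 2449, 2388 and 2813 CPM in *RVE8:GR* + DEX. Replicate 3 of *rve8* + mock, at 3042 CPM, stood well above the other 2 and lay within the *rve8* + DEX range. None of the 5 comparisons of the sum was called: 0.31 ± 0.110 (log2 ± SE, adjusted p = 0.0866) with DEX in *rve8*, 0.43 ± 0.110 (log2 ± SE, adjusted p = 0.037) between the lines after mock, -0.41 ± 0.110 (log2 ± SE, adjusted p = 0.0369) with DEX in *RVE8:GR*, -0.29 ± 0.110 (log2 ± SE, adjusted p = 0.156) between the lines after DEX, and -0.72 ± 0.155 (log2 ± SE, adjusted p = 0.0225) for the difference between the responses. Without that replicate, a setting chosen after seeing the data, all 5 passed the threshold, with adjusted p-values of 0.000432, 8.93e-05, 0.000443, 0.00901 and 3.8e-05 in the same order. In the other 11 fits without 1 library none passed, with adjusted p-values of up to 0.268, 0.139, 0.147, 0.382 and 0.0744. DESeq2 and the exact test called the sum between the lines after mock (adjusted p = 0.00128 and 0.0036). They also called it with DEX in *RVE8:GR* (adjusted p = 0.00173 and 0.00395). The difference between the responses, which the exact test did not cover, was called by DESeq2 (adjusted p = 8.77e-05). Of the *LHCB2* genes, *LHCB2.2* (AT2G05070) had the lowest DEX change in *RVE8:GR* of all 43 genes (-0.44 ± 0.119, log2 ± SE, adjusted p = 0.0457, not called), from 1799.9, 1463 and 1479 CPM with mock to 1091, 1109.7 and 1291 CPM after DEX. In *rve8* the same gene was at 1022, 1012 and 1387 CPM with mock and 1345, 1399 and 1331 CPM with DEX, with replicate 3 of the mock group inside the DEX range.

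*LHCB2.3* (AT3G27690, chr3:10255941-10257229, forward strand, 2 exons) can be read on its own. It was at 243, 240.4 and 337 CPM in *rve8* + mock, 427, 419 and 377 CPM in *rve8* + DEX, 339, 335 and 339 CPM in *RVE8:GR* + mock and 258, 240.0 and 289.9 CPM in *RVE8:GR* + DEX. The *rve8* + DEX libraries were the highest of the 12, and all 3 *RVE8:GR* + DEX libraries were below the 3 *RVE8:GR* + mock libraries. It rose with DEX in *rve8* (0.58 ± 0.113, log2 ± SE, adjusted p = 0.00527), and its change with DEX in *RVE8:GR* was -0.36 ± 0.113 (log2 ± SE, adjusted p = 0.0812), which was not called. After DEX it was lower in *RVE8:GR* than in *rve8* by 0.63 ± 0.113 (log2 ± SE, adjusted p = 0.00291), a fold of 0.644, and was the only one of the 43 genes called in that comparison. The difference between the responses, -0.94 ± 0.160 (log2 ± SE, adjusted p = 0.00629), was the largest of the 43. The call between the lines after DEX was lost without replicate 1 or 2 of *RVE8:GR* + DEX or of *rve8* + DEX, with adjusted p-values of 0.0142 to 0.0199. The call with DEX in *rve8* was lost without replicate 1 or 2 of *rve8* + DEX or of *rve8* + mock, without replicate 1 of *RVE8:GR* + DEX, and without the filter on low counts (adjusted p-values of 0.0105 to 0.0258).

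*LHCB3* (AT5G54270, chr5:22038165-22039568, forward strand, 3 exons), a single-gene LHCII protein of the outer trimers, was at 2339.9, 2072 and 2098 CPM in *rve8* + mock and 2590.2, 2685 and 2201 CPM in *rve8* + DEX. It was at 2837, 2981 and 2593 CPM in *RVE8:GR* + mock and 2159.7, 2378 and 2170.4 CPM in *RVE8:GR* + DEX. The *rve8* groups overlapped, whereas all 3 *RVE8:GR* + DEX libraries were below all 3 *RVE8:GR* + mock libraries. It was above its *rve8* + mock level in *RVE8:GR* + mock by 0.37 ± 0.0772 (log2 ± SE, adjusted p = 0.00662), and its DEX change in *RVE8:GR*, -0.33 ± 0.0771 (log2 ± SE, adjusted p = 0.0103), just missed the threshold. The change in *rve8* was 0.20 ± 0.0771 (log2 ± SE, adjusted p = 0.0955), not called, and the difference between the responses was -0.53 ± 0.109 (log2 ± SE, adjusted p = 0.00812).

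Among the minor antenna genes, *LHCB6* (AT1G15820) was at 1247, 1148 and 1222 CPM in *rve8* + mock, 1498, 1549 and 1319.8 CPM in *rve8* + DEX, 1537, 1547 and 1488 CPM in *RVE8:GR* + mock and 1401, 1334 and 1440.4 CPM in *RVE8:GR* + DEX. It was higher than in *rve8* + mock both in *rve8* + DEX (0.27 ± 0.0652, log2 ± SE, adjusted p = 0.00834) and in *RVE8:GR* + mock (0.34 ± 0.0652, log2 ± SE, adjusted p = 0.0035), without overlap of the libraries. *LHCB4.2* (AT3G08940) was the other minor antenna gene called with DEX in *rve8* (0.37 ± 0.0699, log2 ± SE, adjusted p = 0.00137). *LHCB4.1* (AT5G01530) and *LHCB5* (AT4G10340) were not called in any comparison. The scarce genes *LHCB4.3* and *LHCB7* had changes of 0.58 and 0.56 (log2) with DEX in *rve8*, similar in size to that of *LHCB2.3*, but with standard errors of 0.196 and 0.154 neither was called. At 3.78 to 11.4 CPM in single libraries, their depth limits what could be detected.

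**Figure D3:**
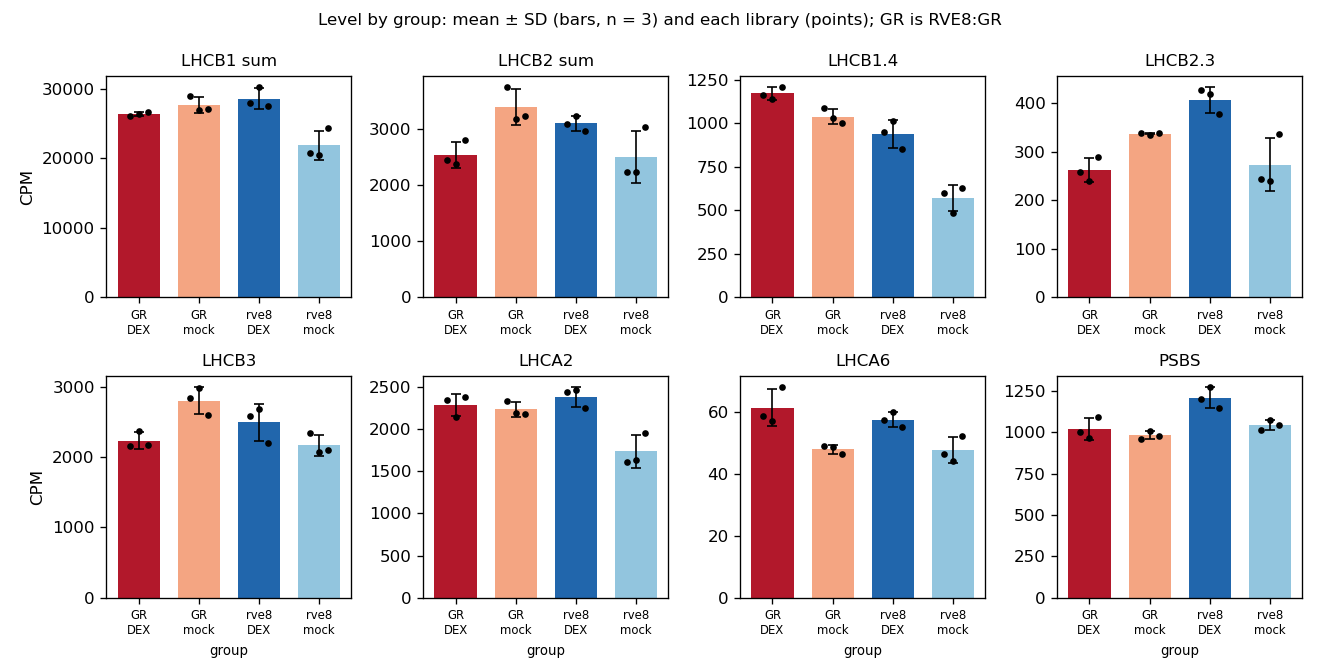
CPM by group for the *LHCB1* and *LHCB2* sums and 6 single genes, with bars for the mean of 3 libraries, error bars for ± 1 SD and points for the libraries, where GR stands for *RVE8:GR*. For the *LHCB1* sum, *LHCB1.4* and *LHCA2* the 3 *rve8* + mock libraries lie below all others, whereas *LHCB2.3* and *PSBS* are highest in *rve8* + DEX.

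In the photosystem I antenna, all 6 *LHCA* genes were higher in each *rve8* + DEX library than in any *rve8* + mock library. *LHCA2* (AT3G61470), one of the 4 belt proteins, was at 1611, 1631 and 1957 CPM in *rve8* + mock, 2437, 2460.4 and 2248 CPM in *rve8* + DEX, 2331, 2186 and 2174 CPM in *RVE8:GR* + mock and 2341, 2139 and 2378 CPM in *RVE8:GR* + DEX. The *rve8* + mock libraries were the lowest, with replicate 3 nearest to the rest, and the other 3 groups overlapped. *LHCA2* rose by 0.46 ± 0.0736 (log2 ± SE, adjusted p = 0.000306) with DEX in *rve8* and was higher by 0.36 ± 0.0735 (log2 ± SE, adjusted p = 0.00496) in *RVE8:GR* than in *rve8* after mock, the only *LHCA* gene called there. *LHCA1* (AT3G54890), *LHCA3* (AT1G61520) and *LHCA4* were also called with DEX in *rve8*, at 0.38, 0.37 and 0.28 (log2). *LHCA1* was at 2452, 2448 and 2875 CPM in *rve8* + mock, 3349, 3574 and 3169 CPM in *rve8* + DEX, 3197, 3037 and 2973 CPM in *RVE8:GR* + mock and 3011, 2593 and 3232 CPM in *RVE8:GR* + DEX. After DEX its difference between the lines was -0.19 ± 0.0797 (log2 ± SE, adjusted p = 0.178), the largest of its class but not called, and the difference between the responses was -0.44 ± 0.113 (log2 ± SE, adjusted p = 0.037). *LHCA4*, the most abundant of the class, was at 2995, 2831 and 3348 CPM in *rve8* + mock, 3784, 3811 and 3563 CPM in *rve8* + DEX, 3777, 3554 and 3454 CPM in *RVE8:GR* + mock and 3356, 3437 and 3609 CPM in *RVE8:GR* + DEX. *LHCA6* (chr1:6612630-6613972, forward strand, 3 exons) was the exception of the class. It was at 58.8, 57.0 and 68.1 CPM in *RVE8:GR* + DEX, 48.9, 48.7 and 46.3 CPM in *RVE8:GR* + mock, 57.5, 59.8 and 55.0 CPM in *rve8* + DEX and 46.5, 44.2 and 52.2 CPM in *rve8* + mock. In both lines the DEX libraries were all above the mock libraries. It was the only one of the 43 genes called with DEX in *RVE8:GR* (0.35 ± 0.0762, log2 ± SE, adjusted p = 0.00526), and its change in *rve8* was 0.27 ± 0.0771 (log2 ± SE, adjusted p = 0.0237), not called. The difference between these 2 changes was 0.08 ± 0.108 (log2 ± SE, adjusted p = 0.807), so a difference between the lines in the response of *LHCA6* was not shown.

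Among the photosystem I subunits, *PSAL* (AT4G12800), which takes part in docking LHCII to photosystem I, had the largest change with DEX in *rve8*. It was at 1601, 1674 and 2001 CPM in *rve8* + mock, 2328, 2567 and 2306 CPM in *rve8* + DEX, 2057, 2217 and 2198 CPM in *RVE8:GR* + mock and 2259, 2152 and 2382 CPM in *RVE8:GR* + DEX. Its change in *rve8* was 0.45 ± 0.0759 (log2 ± SE, adjusted p = 0.000478), its difference between the lines after mock 0.29 (log2), and the difference between the responses -0.38 ± 0.107 (log2 ± SE, adjusted p = 0.0617), of which only the first was called. Subunits D and E, on the side where ferredoxin docks, are each encoded by a pair of genes. *PSAD-2* (AT1G03130) was at 813, 732 and 915 CPM in *rve8* + mock, 1023, 1082 and 958 CPM in *rve8* + DEX, 1107, 1025 and 1058 CPM in *RVE8:GR* + mock and 995, 1037 and 1087 CPM in *RVE8:GR* + DEX. It was called in both comparisons with *rve8* + mock, at 0.32 ± 0.0731 (log2 ± SE, adjusted p = 0.00636) with DEX and 0.38 ± 0.0731 (log2 ± SE, adjusted p = 0.00372) between the lines. *PSAE-2* (AT2G20260) was at 309, 288 and 326 CPM in *rve8* + mock, 422, 418 and 369 CPM in *rve8* + DEX, 363, 373 and 386 CPM in *RVE8:GR* + mock and 413, 383 and 371 CPM in *RVE8:GR* + DEX, and rose with DEX in *rve8* by 0.39 ± 0.0669 (log2 ± SE, adjusted p = 0.000569). The more abundant partners *PSAD-1* (AT4G02770) and *PSAE-1* (AT4G28750) had changes of 0.29 and 0.34 there but were not called, and for both, replicate 3 of *rve8* + mock lay inside the *rve8* + DEX range. Neither pair was called as a sum.

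*PSAF* (AT1G31330), the subunit with the docking site of plastocyanin, was at 1794, 1782 and 2059.6 CPM in *rve8* + mock, 2300.4, 2592 and 2216 CPM in *rve8* + DEX, 2295, 2372 and 2436 CPM in *RVE8:GR* + mock and 2503, 2258 and 2472 CPM in *RVE8:GR* + DEX. The *rve8* + mock libraries were below all 9 others. It was called in both comparisons with that group, at 0.34 ± 0.0720 (log2 ± SE, adjusted p = 0.00362) and 0.33 ± 0.0720 (log2 ± SE, adjusted p = 0.00858). The call between the lines was lost when any of the same 8 libraries as for the *LHCB1* sum was left out, with adjusted p-values of 0.0119 to 0.0712. *PSAG*, the most abundant of the class, was at 2288, 2308 and 2713 CPM in *rve8* + mock, 3009.9, 3190.4 and 3025 CPM in *rve8* + DEX, 2758, 2736 and 2911 CPM in *RVE8:GR* + mock and 2899, 3030.1 and 3318 CPM in *RVE8:GR* + DEX, and rose with DEX in *rve8* by 0.34 ± 0.0711 (log2 ± SE, adjusted p = 0.00323). *PSAO* (AT1G08380), at 1265, 1095 and 1131 CPM in *rve8* + mock, 1447, 1565 and 1411 CPM in *rve8* + DEX, 1341, 1431 and 1327 CPM in *RVE8:GR* + mock and 1537, 1341 and 1663 CPM in *RVE8:GR* + DEX, rose there by 0.34 ± 0.0756 (log2 ± SE, adjusted p = 0.00457). Its DEX change in *RVE8:GR*, 0.15 ± 0.0754 (log2 ± SE, adjusted p = 0.306), was the largest of its class and was not called. *PSAH-2* (AT1G52230) had the smallest change of the 43 genes with DEX in *rve8*, 0.13 ± 0.0721 (log2 ± SE, adjusted p = 0.279), from 912, 881 and 1079 CPM to 1095, 1073 and 967 CPM, which overlap. It was at 1179.8, 1187 and 1154 CPM in *RVE8:GR* + mock and 1059, 1141 and 1146 CPM in *RVE8:GR* + DEX, where the DEX libraries were just below the mock libraries. The other genes of the class, *PSAH-1*, *PSAK* and *PSAN*, were not called in any comparison.

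On the photosystem II side, the largest change was that of *PSBP-1* (AT1G06680), an extrinsic protein of the oxygen-evolving complex. It was at 2507, 2572 and 2808 CPM in *rve8* + mock, 3637, 4322 and 3223 CPM in *rve8* + DEX, 2785, 3119.9 and 3115 CPM in *RVE8:GR* + mock and 3581, 2972 and 3037 CPM in *RVE8:GR* + DEX. Replicate 2 of *rve8* + DEX was the highest library by far. The gene rose with DEX in *rve8* by 0.50 ± 0.0954 (log2 ± SE, adjusted p = 0.00216), and the difference between the responses was -0.42 ± 0.135 (log2 ± SE, adjusted p = 0.13), not called. *PSBO1* (AT5G66570) and *PSBO2* (AT3G50820) encode the protein that stabilises the manganese cluster. *PSBO1* was at 2611, 2539 and 2803 CPM in *rve8* + mock, 3529.7, 3603 and 3238 CPM in *rve8* + DEX, 3297, 3049.6 and 3234 CPM in *RVE8:GR* + mock and 3450.3, 3220.2 and 3358 CPM in *RVE8:GR* + DEX. *PSBO2* was at 611, 652 and 793 CPM in *rve8* + mock, 912, 922 and 837 CPM in *rve8* + DEX, 761, 747 and 821 CPM in *RVE8:GR* + mock and 889.8, 782 and 870.4 CPM in *RVE8:GR* + DEX. Both were called with DEX in *rve8*, at 0.38 ± 0.0639 (log2 ± SE, adjusted p = 0.000432) and 0.38 ± 0.0815 (log2 ± SE, adjusted p = 0.00429), and so was their sum, which was 3222, 3191 and 3597 CPM in *rve8* + mock and 4442, 4525 and 4076 CPM in *rve8* + DEX (0.38 ± 0.0650, log2 ± SE, adjusted p = 0.000555). The sum of *PSBQA* (AT4G21280) and *PSBQ-2* (AT4G05180) was 1289, 1168 and 1316 CPM in *rve8* + mock, 1510.1, 1504 and 1455 CPM in *rve8* + DEX, 1537, 1480.2 and 1425 CPM in *RVE8:GR* + mock and 1524, 1559 and 1540.0 CPM in *RVE8:GR* + DEX. As a sum it was called with DEX in *rve8* (0.24 ± 0.0591, log2 ± SE, adjusted p = 0.00943), although neither gene was called on its own.

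*PSBR*, a small protein next to the oxygen-evolving complex, was at 3283, 3139 and 3916 CPM in *rve8* + mock, 4632, 4256 and 4580.0 CPM in *rve8* + DEX, 4205, 3810.4 and 4094 CPM in *RVE8:GR* + mock and 4097, 3967 and 4667 CPM in *RVE8:GR* + DEX, and rose with DEX in *rve8* by 0.38 ± 0.0800 (log2 ± SE, adjusted p = 0.003). *PSBW* (AT2G30570) was the last gene of the class to be called there, at 0.27 (log2). *PSBS* (AT1G44575) switches on the release of excess energy as heat. Like the scarce *LHCB4.3* and *LHCB7*, it had its lowest mean in *RVE8:GR* + mock and its highest in *rve8* + DEX. It was at 1202, 1276 and 1149 CPM in *rve8* + DEX, 1014, 1077 and 1044 CPM in *rve8* + mock, 960.4, 1009 and 976 CPM in *RVE8:GR* + mock and 1003, 967 and 1092 CPM in *RVE8:GR* + DEX. The *rve8* + DEX libraries were above all others, and *RVE8:GR* + mock was just below *rve8* + mock. After DEX it was at -0.24 ± 0.0621 (log2 ± SE, adjusted p = 0.0153) in *RVE8:GR* relative to *rve8*, the largest difference of its class, which was not called. *PSBX*, *PSBY*, *PSBQA* and *PSBQ-2* were not called in any comparison.

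**Figure D4:**
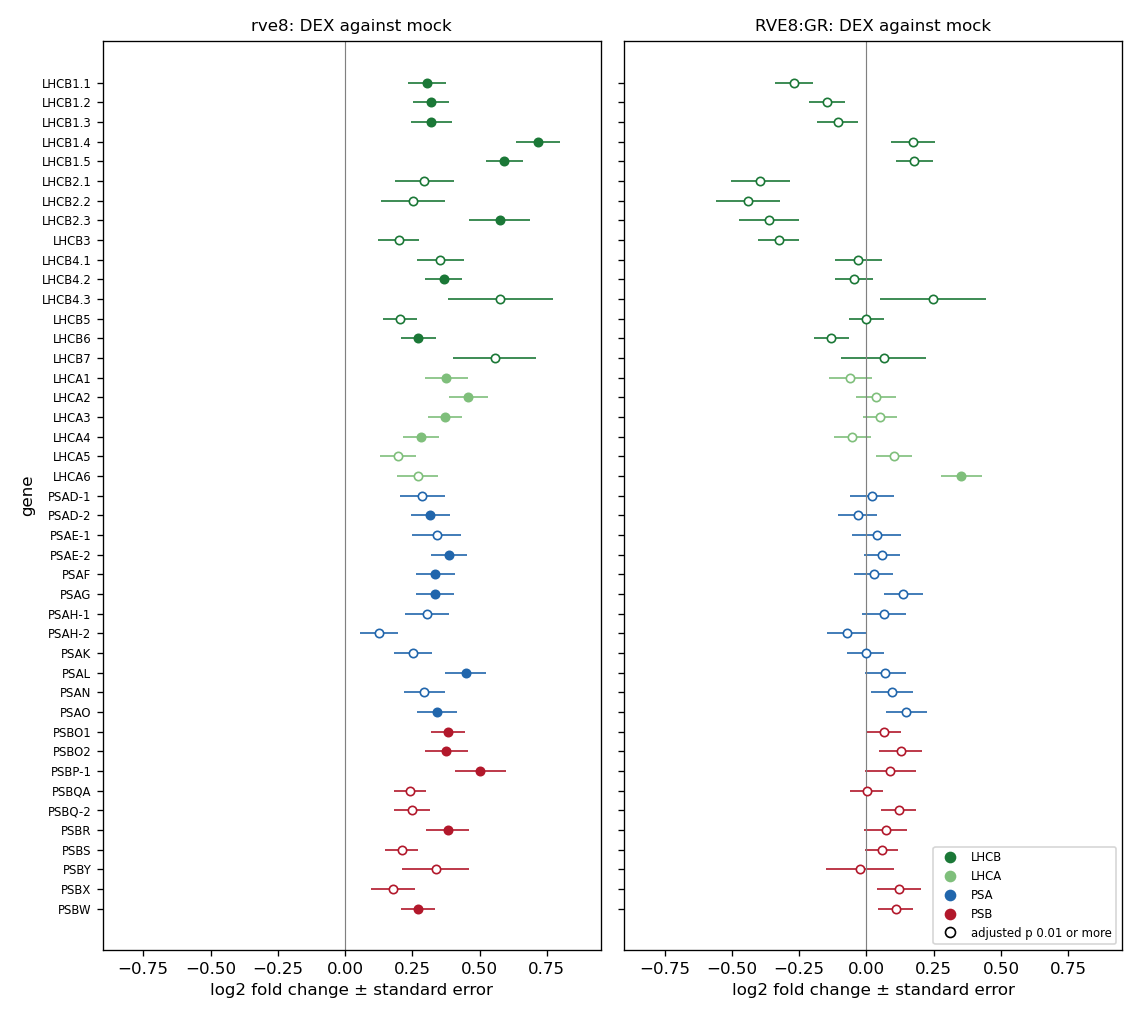
Log2 fold change with DEX in *rve8* (left) and in *RVE8:GR* (right) for each of the 43 genes, with bars for the standard error and filled points for an adjusted p-value under 0.01. On the left all 43 points lie between 0.13 and 0.72 and 23 are filled, whereas on the right they lie between -0.44 and 0.35 and only *LHCA6* is filled.

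With DEX in *rve8*, the comparison that measures the response to DEX without the fusion protein, the antenna and photosystem genes were higher together. All 43 changes were positive, 23 were called higher, and 0 were called lower by edgeR's quasi-likelihood test, by its exact test or by DESeq2. Of all genes tested, 3.96% were called higher and 1.57% lower. The median change was 0.32 (log2) over the 43 genes and -0.01 over all genes. By class, 8 of 15 *LHCB*, 4 of 6 *LHCA*, 6 of 12 *PSA* and 5 of 10 *PSB* genes were called, and the class medians were 0.32, 0.33, 0.33 and 0.30. In 33 of the 43 genes, all 3 DEX libraries were above all 3 mock libraries, as in 15.7% of all genes. The mesophyll markers *RCA* and *CA1*, a pair of photosynthesis proteins outside the list, were also called higher there (0.45 and 0.44 on the log2 scale), and their part in the result was not tested. The number of genes called was 8 or 9 without replicate 1 or 2 of *rve8* + DEX, 13 or 7 without replicate 1 or 2 of *rve8* + mock, and 31 without replicate 3 of *rve8* + mock. Among the single genes, the calls of *PSBR* and *PSBO2* were lost in 4 of the 12 fits without 1 library and that of *PSBP-1* in 2, with adjusted p-values of at most 0.0364.

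Between the lines after mock treatment, which compares plants with and without the fusion protein in the absence of DEX, most of the genes were on the higher side in *RVE8:GR*. The change was positive for 40 of the 43 genes with a median of 0.26 (log2), against -0.0024 over all genes. Called were 7 genes, all higher (*LHCB1.4*, *PSAD-2*, *LHCB3*, *LHCB1.3*, *LHCA2*, *LHCB6* and *PSAF*), beside 1.31% of all genes higher and 0.416% lower. No *PSB* gene was called, and *PSBO1* had the largest change of that class (0.27 ± 0.0638, log2 ± SE, adjusted p = 0.0159). In 30 of the 43 genes all 3 *RVE8:GR* libraries were above all 3 *rve8* libraries, as in 11.5% of all genes. The number called depended on single libraries. It was 25 without replicate 3 of *rve8* + mock, 1 without replicate 2 of that group or replicate 1 of *RVE8:GR* + mock, and 2 to 4 without replicate 1 of *rve8* + mock, replicate 2 or 3 of *RVE8:GR* + mock, or replicate 1 of either DEX group. DESeq2 called 23 genes and the exact test 16, and *LHCB1.4* was called in every fit run. For these alternatives the shares of all genes called were not counted. Of the 12 fits that each left out 1 library, the call of *LHCB1.3* and that of *PSAF* were lost in 8, that of *LHCB3* in 6, those of *PSAD-2* and *LHCA2* in 5 and that of *LHCB6* in 3, and *LHCB3* was also lost without TMM factors (adjusted p = 0.0135).

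With DEX in *RVE8:GR*, which combines any effect of DEX itself with that of letting the fusion protein enter the nucleus, the 43 genes did not move as a body. The median change was 0.04 (log2), with 26 positive and 17 negative. *LHCA6* was called higher and 0 genes were called lower, beside 2.07% and 1.36% of all genes. At an unadjusted p under 0.05 there were 9 genes in either direction, and DESeq2 called 4 genes lower and the exact test 3. The shares of all genes at these settings were not counted, so these numbers have no background beside them. The *LHCB* genes had a median of -0.11, and for 8 of the 15 all 3 DEX libraries were below all 3 mock libraries. Over the 43 genes this count was 9, and it held for 11.5% of all genes. Without replicate 3 of *rve8* + mock, which is in neither group but shares the estimate of the spread, 5 genes were called lower. It was 1 gene without replicate 2 of *RVE8:GR* + DEX, replicate 3 of *RVE8:GR* + mock, replicate 2 or 3 of *rve8* + DEX, or replicate 1 of *rve8* + mock. The call of *LHCA6* was lost without any 1 of the 3 *RVE8:GR* + mock libraries and without replicate 1 or 3 of *RVE8:GR* + DEX, with adjusted p-values of 0.0131 to 0.0554.

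Between the lines after DEX, the median was -0.06 (log2), with 14 positive and 29 negative. *LHCB2.3* was called lower and 0 genes were called higher, beside 2.32% and 1.89% of all genes. At an unadjusted p under 0.05 there were 11 genes in either direction, while DESeq2 called 1 gene higher and 4 lower, and the exact test 1 higher and 3 lower. Here too, the shares of all genes at these settings were not counted. The libraries of *RVE8:GR* + DEX were all below those of *rve8* + DEX for 10 genes, and for 12.8% of all genes. Of these 10, 8 were *LHCB* genes and the others were *PSBS* and *PSBY*. Without replicate 3 of *rve8* + mock, 3 genes were called lower and 1 higher, and without replicate 2 of that group 1 was called higher. The number called lower was 0 without replicate 2 of *RVE8:GR* + DEX or replicate 1 or 2 of *rve8* + DEX, and 2 without replicate 3 of *RVE8:GR* + DEX.

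The difference between the DEX responses of the lines was negative for 42 of the 43 genes, *LHCA6* being the exception at 0.08 (log2). The median was -0.33, against 0.01 over all genes. All 5 genes called, *LHCB2.3*, *LHCB1.1*, *LHCB1.4*, *LHCB3* and *LHCB1.2*, belong to the LHCII trimers, and all were lower, beside 0.947% of all genes called lower and 0.24% higher. The class medians were -0.47 for *LHCB*, -0.33 for *LHCA*, -0.26 for *PSA* and -0.25 for *PSB*. Called were 16 genes without replicate 3 of *rve8* + mock, 0 without replicate 1 of *RVE8:GR* + DEX, and 1 or 2 when any other library was left out except replicate 3 of *rve8* + DEX. The response to DEX in *rve8*, the difference after mock treatment and this difference all use the *rve8* + mock libraries, and the comparison after DEX shares its libraries with the DEX responses, so that these 5 sets of values are not independent of each other.

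Of the 37 other nuclear genes of photosynthesis that were listed, all were tested. Their changes with DEX in *rve8* were all positive, with a median of 0.25 (log2). Beside 3.96% of all genes called higher and 1.57% lower, 8 of the 37 were called, all higher. Among these were *STN7* (0.39), the kinase that phosphorylates LHCII, *TAP38* (0.34), the phosphatase that reverses it, *PETC* (0.34), the Rieske protein of the cytochrome complex, and the Rubisco small subunit genes *RBCS3B* (0.42) and *RBCS2B* (0.40), which are near copies of each other and uncertain on their own. Between the lines after mock, 3 were called higher (*GLK1*, *LFNR2* and *ATPD*) and 1 lower (*HYH*), beside 1.31% and 0.416% of all genes. *GLK1*, a transcription factor that activates antenna genes, was at 138, 120.2 and 117 CPM in *RVE8:GR* + mock and 74.2, 82.1 and 91.4 CPM in *rve8* + mock, without overlap (0.60 ± 0.0763, log2 ± SE, adjusted p = 5.07e-05). Its partner *GLK2* was at 128, 137 and 160.1 CPM in *rve8* + mock, 167, 183 and 176 CPM in *rve8* + DEX, 166, 162 and 158 CPM in *RVE8:GR* + mock and 144, 121 and 141 CPM in *RVE8:GR* + DEX. After DEX, *GLK2* was lower in *RVE8:GR* than in *rve8* (-0.38 ± 0.0773, log2 ± SE, adjusted p = 0.00257) and was the only listed gene called for the difference between the responses (-0.57 ± 0.109, log2 ± SE, adjusted p = 0.00434). Of all genes, 0.947% were called lower and 0.24% higher for that difference. None (0 of 37) was called with DEX in *RVE8:GR*, beside 2.07% of all genes called higher and 1.36% lower. Between the lines after DEX 1 was called higher (*LFNR2*) and 5 lower (*FD1*, *PGR5*, *HYH*, *ELIP2* and *GLK2*), beside 1.89% and 2.32% of all genes.

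Markers of cell types were set beside these results. The summed level of the mesophyll markers *RCA* and *CA1* was 7535 to 8076 CPM in *rve8* + DEX, 5480 to 5869 in *rve8* + mock, 4987 to 5508 in *RVE8:GR* + mock and 5302 to 6079 in *RVE8:GR* + DEX. Neither was called between the lines after mock. After DEX, *RCA* was lower in *RVE8:GR* than in *rve8* (-0.52 ± 0.0631, log2 ± SE, adjusted p = 8.14e-06). The sum of the 5 root markers was 1506 to 1762 CPM in *rve8* + DEX, below the 1961 to 2057 CPM of *rve8* + mock, and none of the 5 was called in any comparison. The sum was almost wholly *PYK10*, a root glucosidase, at 1715, 1466 and 1589.7 CPM in *rve8* + DEX and 1952, 1890.3 and 1982 CPM in *rve8* + mock. The other 4 were each at no more than 39.7 CPM in any library. Their means in *rve8* + DEX and *rve8* + mock were 19.2 and 34.1 CPM for *PRP3*, 4.26 and 6.41 CPM for *COBL9* and 6.50 and 7.30 CPM for *EXPA7*. *CASP1* went the other way, with means of 21.0 CPM and 18.2 CPM. Of these 4, only *COBL9* had no overlap of the libraries of these groups. The sum was 1750 to 2113 CPM in *RVE8:GR* + mock and 1730 to 1983 CPM in *RVE8:GR* + DEX. The guard cell marker *MYB60* was at 9.84 to 15.2 CPM over all libraries. Of the markers that should be absent, pollen *VGD1* was at 0 in 11 of 12 libraries, whereas the seed storage gene *CRA1* varied from 33.0 to 326.8 CPM with overlap of all groups. *CCA1*, a morning clock gene, was at 45.6, 62.5 and 50.2 CPM in *rve8* + DEX and 27.9, 26.4 and 31.6 CPM in *rve8* + mock. It was at 20.3, 20.2 and 18.5 CPM in *RVE8:GR* + mock and 16.7, 16.1 and 15.6 CPM in *RVE8:GR* + DEX, so that between the lines after mock it was called lower in *RVE8:GR* (-0.54, log2), where 40 of the 43 genes were on the higher side. The part of these differences in the values of the 43 genes was not tested.

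The sequence upstream of the genes was searched for motifs of the clock and of light regulation, on both strands from 250 bases before to 50 bases after the annotated transcript start. All 43 genes have a start in TAIR10.1. The evening element (AAATATCT), the site that clock MYB factors such as RVE8 bind, was found in 0 of the 43 windows, and in 5.65% of all 25278 windows. The related CCA1-binding site (AAAAATCT) was in 7 (16.3%, against 7.64% of all), the G-box (CACGTG) in 15 (34.9%, against 8.17%) and the I-box core (GATAAG) in 19 (44.2%, against 14.99%). The evening element and the CCA1-binding site differ by 1 letter, so no stretch is counted for both. In the 1500 bases before the start codon, a window chosen after seeing the data, the evening element was in 10 of the 43 (23.3%), close to the 20.6% of all 23808 windows, and *LHCA6* was not among them. A match is a description of the letters and not a bound site. Shown for the differing LHCII genes are the 250 bases before the start of *LHCB1.1* (chr1:10475970-10476219, reverse strand), *LHCB1.4* (chr2:14524357-14524606, forward strand) and *LHCB2.3* (chr3:10255691-10255940, forward strand), 5′ to 3′ on the strand of the gene, with motifs in capitals.
LHCB1.1: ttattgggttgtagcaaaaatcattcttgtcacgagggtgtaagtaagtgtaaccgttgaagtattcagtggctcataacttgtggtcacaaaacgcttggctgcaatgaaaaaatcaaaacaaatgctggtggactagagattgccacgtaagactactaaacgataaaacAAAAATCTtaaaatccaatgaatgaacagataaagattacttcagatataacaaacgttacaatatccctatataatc
LHCB1.4: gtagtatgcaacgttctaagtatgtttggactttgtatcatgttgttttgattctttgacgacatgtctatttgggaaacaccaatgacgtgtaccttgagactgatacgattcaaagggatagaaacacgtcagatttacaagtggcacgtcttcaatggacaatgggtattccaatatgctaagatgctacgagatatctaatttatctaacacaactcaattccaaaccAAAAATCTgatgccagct
LHCB2.3: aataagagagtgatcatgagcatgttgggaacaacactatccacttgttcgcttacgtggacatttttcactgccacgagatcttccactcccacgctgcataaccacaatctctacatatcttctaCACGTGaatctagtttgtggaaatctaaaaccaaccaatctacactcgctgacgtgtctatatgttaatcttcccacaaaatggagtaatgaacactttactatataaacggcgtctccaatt
The CCA1-binding site starts 78 bases before the transcript in *LHCB1.1* and 18 bases before it in *LHCB1.4*, and the G-box of *LHCB2.3* starts 123 bases before it. *LHCB1.2* and *LHCB3*, the other 2 genes called for the difference between the responses, have none of the 4 motifs in these 250 bases. The pair of *PSBQ* genes, called with DEX in *rve8* only as a sum, shows a common arrangement of 2 G-boxes followed by an I-box, in *PSBQA* (chr4:11334152-11334401, forward strand) and in *PSBQ-2* (chr4:2673244-2673493, reverse strand).
PSBQA: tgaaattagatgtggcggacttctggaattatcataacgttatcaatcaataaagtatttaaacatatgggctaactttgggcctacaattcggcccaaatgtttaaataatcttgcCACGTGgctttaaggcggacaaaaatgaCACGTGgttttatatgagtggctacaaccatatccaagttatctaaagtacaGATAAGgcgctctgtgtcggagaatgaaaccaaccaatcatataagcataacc
PSBQ-2: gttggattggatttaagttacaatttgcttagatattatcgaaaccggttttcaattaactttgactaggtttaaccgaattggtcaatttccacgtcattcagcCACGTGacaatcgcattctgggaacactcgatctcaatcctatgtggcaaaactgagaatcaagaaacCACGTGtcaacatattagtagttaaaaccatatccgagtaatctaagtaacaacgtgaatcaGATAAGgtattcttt
The G-boxes start 133 and 105 bases before the transcript in *PSBQA* and 145 and 77 bases before it in *PSBQ-2*, and the I-box starts 53 and 15 bases before it.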

How the data were processed

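Raw, unnormalised counts for the 12 libraries were deposited by the authors, with 1 row a gene model. To make it, the authors filtered the reads (CASAVA 1.8 in the submitters' processing notes), aligned them with BWA to the representative TAIR10 cDNA models, merged lanes with SAMtools and counted reads on the strand of the gene. Reads shared by paralogs can fall to either copy, which affects *LHCB1* and *LHCB2* most. Groups came from the sample titles. The 33457 empty entries were read as 0, since the smallest count written is 1, and all 12 columns were used.

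The 43 genes, the list of 37 other photosynthesis genes and the markers were chosen with earlier results of these data known. Counts were fitted in edgeR 4.0.16 (R 4.3.3) with TMM factors and the robust quasi-likelihood test, all 4 groups together and without covariates, for models that reached 1 CPM in 3 or more libraries. P-values were adjusted over all models tested (Benjamini-Hochberg, threshold 0.01, as in the study, which used the exact test). Standard errors were derived from the F statistic. P-values measure the spread between pools of seedlings. Genes were given with a value per library if they were called (at most 10 a comparison), the most abundant of their class or the most changed of their class in a comparison, which also holds for called sums. *LHCB4.2*, *LHCA3*, *PSBW*, *PSAD-1*, *PSAE-1*, *LHCB4.3* and *LHCB7* were named with fewer values.

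Alternatives were the exact test, DESeq2 1.42.0, no TMM factors, no filter (26245 models), a replicate block, a threshold of 0.05, each paralog on its own and leaving out each library. The fit was tested on simulated data with 200 changed genes. The table has no coordinates: positions and sequences are from RefSeq's TAIR10.1 genome and annotation, in which all 43 genes were matched by name, and were joined to the TAIR10 counts by gene name only. Shared 50-base stretches and motifs were found with Python 3.11.15, and coding sequences were aligned with MAFFT 7.526. The motif window was built from the genome.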

Additional observations from a re-analysis of the deposited data

Results flagged for a closer look

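For 5 genes of the LHCII trimers the response to DEX differed between *RVE8:GR* and *rve8* by the test of the difference itself (edgeR's quasi-likelihood test, adjusted p under 0.01). The DEX response in *RVE8:GR* minus that in *rve8* was -0.94 (log2) for *LHCB2.3* (AT3G27690), where all 3 DEX libraries were above the mock libraries in *rve8* and below them in *RVE8:GR*. It was -0.57 for *LHCB1.1* (AT1G29920) and -0.47 for *LHCB1.2* (AT1G29910), with the same opposed orders of the libraries. For *LHCB1.4* (AT2G34430) the difference was -0.54, although DEX libraries were above mock libraries in both lines. For *LHCB3* (AT5G54270) it was -0.53, where the *rve8* libraries overlapped and the *RVE8:GR* libraries were lower with DEX. The *LHCB1* values on their own are uncertain, since the 5 genes share sequence and the difference for their sum was not called (-0.45, adjusted p = 0.0121). Each of these calls was lost when certain single libraries were left out, in 8 of the 12 fits for *LHCB2.3* and for *LHCB3*, in 10 for *LHCB1.2* and *LHCB1.4* and in 2 for *LHCB1.1*, with adjusted p-values of at most 0.0378, and the difference stayed negative in all of them. Without TMM factors, *LHCB1.4* and *LHCB3* were not called (adjusted p = 0.0146 and 0.022). With the replicate number as a block, *LHCB1.2* and *LHCB1.4* were not called (adjusted p = 0.0125 and 0.0133). Without the filter on low counts, *LHCB2.3* was not called (adjusted p = 0.0127). The call of *LHCB1.1* was kept in these settings.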

How the results depend on the processing

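Signs were followed in the alternatives for the *LHCB1* and *LHCB2* sums in every comparison. Single genes were followed only where they were the most changed of their class or among the called genes with the largest changes. None of these fold changes changed sign in any alternative run. The signs of the other fold changes given above, such as that of *PSAH-2* with DEX in *rve8* or those of the *PSBO* and *PSBQ* sums, were not followed. The median with DEX in *RVE8:GR*, 0.04 (log2), was -0.00087 without replicate 1 of *RVE8:GR* + DEX, and the calls there, 1 higher and 0 lower, became 1 higher and 4 lower with DESeq2 and 1 higher and 5 lower without replicate 3 of *rve8* + mock. With DEX in *rve8*, 35 genes were called higher at a threshold of 0.05, the median was 0.24 (log2) without TMM factors, and 5 of the 7 subunits with paralogs had a called gene when each paralog was read on its own. After mock treatment the number called higher was 16 with the exact test, 23 with DESeq2, 15 without the filter and 26 at 0.05, and 2 subunits had a called paralog. With DEX in *RVE8:GR* the number called lower was 3 with the exact test, 4 with DESeq2, 2 without TMM factors, 2 without the filter and 4 at 0.05. After DEX the number called lower was 3 with the exact test, 4 with DESeq2, 3 without the filter and 4 at 0.05, and 1 gene was called higher with the exact test, with DESeq2, without TMM factors, without the filter and at 0.05, while 1 subunit had a called paralog. For the difference between the responses it was 15 with DESeq2, 3 without TMM factors, 8 without the filter and 13 at 0.05, and 2 subunits had a called paralog. Leaving out each library in turn gave 7 to 31 genes called higher and 1 to 7 sums with DEX in *rve8*, with a median of 0.28 to 0.42, and 1 to 25 genes and 0 to 7 sums after mock treatment. It gave 0 to 1 higher, 0 to 5 lower and 0 to 1 sums with DEX in *RVE8:GR*, 0 to 1 higher, 0 to 3 lower and 0 to 1 sums after DEX, and 0 to 16 lower and 0 to 3 sums for the difference between the responses. Where these counts moved, the cause was not tested, and the shares of all genes called in the alternatives were not counted. *LHCB1.4* and *LHCB1.5* with DEX in *rve8*, and *LHCB1.4* after mock treatment, were called in all alternatives.

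With the replicate number as a block, 1 gene was called lower with DEX in *RVE8:GR*, 3 for the difference between the responses, and 0 sums after mock treatment, where the adjusted p was 0.0108 for *PSAF* and 0.0125 for the *LHCB1* sum. The numbers showed no clear pairing of the samples: same-numbered libraries correlated at -0.083 to 0.209 in their deviations from the group means, 3 of 18 pairs were above 0.1, and 5 of 12 libraries correlated best with their own number. With 3 libraries a group, such correlations cannot decide whether same-numbered libraries were handled together.

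With 3 libraries a group, changes of the size seen here lie near the threshold, and counts of calls move with a single library. *LHCB4.3* and *LHCB7* had 66 and 103 counts in the library with the fewest, and the other genes at least 650, so depth limits those 2 genes most.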
